A study of Mus musculus with 3 samples.

Results

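The BAFF and APRIL system comprises 5 genes among the 32285 gene rows of the count matrices. They were taken by name: the ligand genes Tnfsf13b (BAFF) and Tnfsf13 (APRIL), and the receptor genes Tnfrsf13b (TACI), Tnfrsf13c (BAFF-R) and Tnfrsf17 (BCMA). Gene expression was measured by 10x Genomics 5′ single-cell sequencing in mouse splenocytes from which T cells had been depleted with CD3 beads, in 3 libraries with 1 library per group. In the C57BL/6 control library, cells of male sham-treated mice and of female C57Bl/6 mice had been combined. For this library a pump implanted at 10 weeks of age for 2 weeks is recorded. The C57BL/6 Ang II library combined C57Bl/6 mice given angiotensin II at 490 ug/kg/min, as labelled, by minipump for 2 weeks from 10 weeks of age, with placebo or with 2HOBA (2-hydroxybenzylamine, an isolevuglandin scavenger). The B6.SLE123 library combined mice of this congenic lupus-prone strain that had received placebo or 2HOBA for 6 weeks from 7 weeks of age. All mice were 12-14 weeks old at harvest, and the spleens of 3 mice were pooled per condition. Both 2HOBA conditions therefore sit inside a library together with their placebo condition. The control library held both sexes, the Ang II mice were male and the B6.SLE123 mice female by the study's description, so strain or treatment cannot be told apart from sex mix or from library. The 6 hashtags of each library, C0301 to C0306, were not named for a condition, so they are given as separate values and not as groups, and 2HOBA was not compared.

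BAFF and APRIL are ligands of the tumour necrosis factor family that keep B lineage cells alive. BAFF binds all 3 receptors, whereas APRIL binds TACI and BCMA. BAFF-R supports the survival of mature B cells and signals largely through the noncanonical NF-kB pathway. TACI is high on marginal zone and activated B cells and can restrain B cell numbers, and BCMA supports long-lived plasma cells. In the spleen, myeloid cells are known sources of both ligands, and excess BAFF is a known feature of lupus.

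Classes of cells were gated by marker genes: a cell entered a class if at least 3 of the class's markers had a unique molecular identifier (UMI), with a minimum of 5 of 8 for plasma cells, 4 of 12 for neutrophils and 4 of 8 for marginal zone B cells. After filtering, 15700 control, 14017 Ang II and 16702 B6.SLE123 cells were kept, with a median of 1759, 2724 and 1888 UMIs per cell. The B cell gate held 13097, 11487 and 12583 of them. Between 2.58% and 2.95% of the barcodes of the smaller library recurred in another library. The Ang II library held 300 cells in the T cell gate against 17 and 16 in the control and B6.SLE123 libraries, and the mean number of neutrophil markers detected per cell of its B cell gate was 0.596, against 0.0935 in control and 0.288 in B6.SLE123. The part of these differences in the values below was not tested. Levels are given as CPM, the UMIs of a gene per 1000000 UMIs of the same cells. Every interval is an exact 95% interval for counting error only, because there was no replicate library, and no difference has a replicate check.

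All 5 genes were detected in every library. Tnfrsf13c and Tnfrsf13b were the most counted, with 8838 and 6782 UMIs in the control library, 13726 and 7905 in the Ang II library, and 7968 and 5201 in the B6.SLE123 library. Tnfsf13 had 312, 209 and 421 UMIs and Tnfsf13b had 76, 160 and 131. Tnfrsf17 had 14, 45 and 267. Most receptor and ligand UMIs were in different classes, although monocytes held both Tnfsf13 and Tnfrsf13b. B cell-gated cells held 92.9% to 97.2% of Tnfrsf13c UMIs and 87.7% to 95.1% of Tnfrsf13b UMIs, while they held 5.62% to 6.87% of those of Tnfsf13b. Counts were not corrected for transcript length, so the order of these totals does not rank the genes by abundance.

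**Figure D1:**
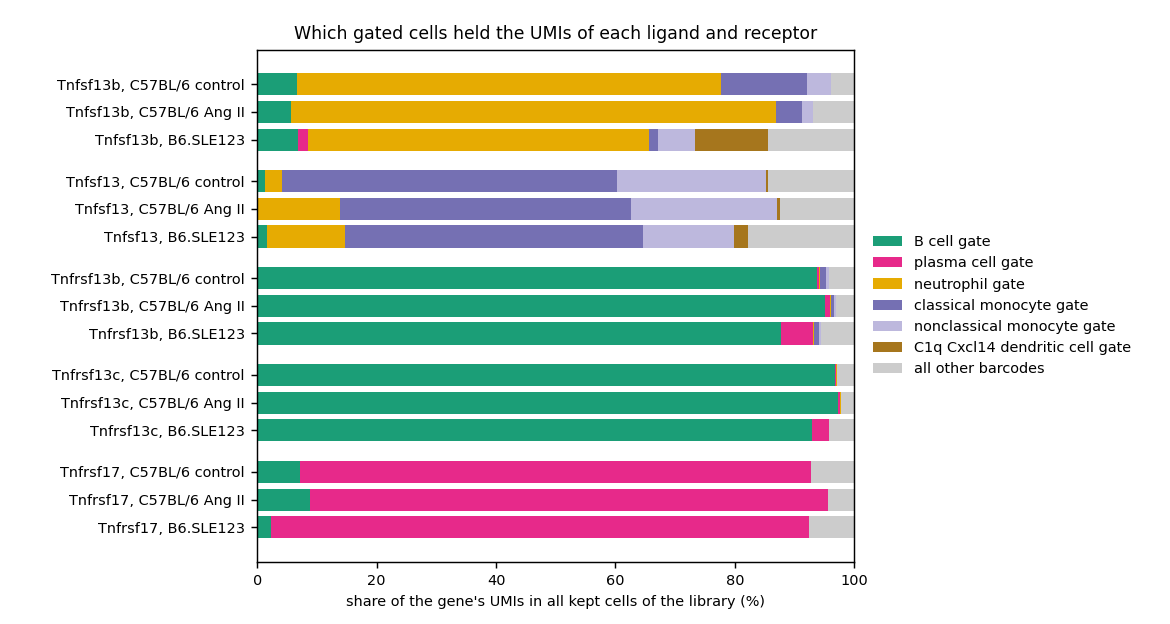
Share of each gene's UMIs, in percent of all its UMIs in the kept cells of a library, that fell in each gated class; 1 bar per gene and library. Neutrophils held most Tnfsf13b (57.3% to 81.3%), classical and nonclassical monocytes most Tnfsf13 (65.1% to 81.1%), B cells most Tnfrsf13b and Tnfrsf13c, and plasma cells most Tnfrsf17 (85.7% to 90.3%).

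On GRCm38, Tnfsf13b lies at chr8:10006467-10039072 on the plus strand, Tnfrsf13b at chr11:61126755-61149372 (plus), Tnfsf13 at chr11:69682846-69685784 (minus), Tnfrsf13c at chr15:82221743-82224369 (minus) and Tnfrsf17 at chr16:11313812-11320074 (plus). The neighbouring gene Tnfsf12, the gene of the ligand TWEAK, ends 465 bases before the start of Tnfsf13 on the same strand. An annotated readthrough gene, Tnfsfm13, spans both and is no row of the matrix, so counts of Tnfsf13 are uncertain where reads could belong to a joined transcript. The upstream sequences of Tnfrsf13b and Tnfrsf13c are shown because these were the receptor genes carried by B cells and both were lower in the B cells of the B6.SLE123 library. They are the 250 bases before the annotated start in RefSeq (GRCm38.p6), 5′ to 3′ on the gene's strand. Capitals mark GGAA or its reverse complement TTCC, the core letters bound by ETS-family factors, to which PU.1, the factor examined in the study, belongs.
Tnfrsf13b (chr11:61126505-61126754, plus): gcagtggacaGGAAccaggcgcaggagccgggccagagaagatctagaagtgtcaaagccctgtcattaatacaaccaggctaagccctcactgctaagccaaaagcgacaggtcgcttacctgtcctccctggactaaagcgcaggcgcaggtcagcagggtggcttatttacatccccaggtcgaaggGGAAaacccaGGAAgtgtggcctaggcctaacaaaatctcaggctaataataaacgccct
Tnfrsf13c (chr15:82224381-82224630, minus): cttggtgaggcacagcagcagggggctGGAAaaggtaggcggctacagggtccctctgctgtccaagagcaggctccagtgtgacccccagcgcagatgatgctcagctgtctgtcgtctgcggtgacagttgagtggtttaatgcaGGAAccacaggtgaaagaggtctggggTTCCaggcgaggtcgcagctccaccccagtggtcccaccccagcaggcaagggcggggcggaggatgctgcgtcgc
Each window held 3 matches, which was also the median over 32851 windows of the same length. At least 1 match on either strand was found in 93.4% of them, so the letters do not set these genes apart.

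Among the kept cells, the BAFF gene, Tnfsf13b, was mainly a neutrophil transcript. None of the 16 lineage marker lists was for stromal cells, so the share of such cells in the Tnfsf13b of the spleen could not be seen. Neutrophil-gated cells carried 42.0 CPM in the control library (54 UMIs in 613 cells, interval 31.6 to 54.8), 43.4 CPM in the Ang II library (130 UMIs in 658 cells, 36.2 to 51.5) and, with 75 UMIs in 667 cells, 34.8 CPM (27.4 to 43.7) in that of B6.SLE123. These 3 intervals overlapped. The log2 ratio to control was 0.04 for Ang II (-0.42 to 0.53) and -0.27 for B6.SLE123 (-0.79 to 0.26), so differences smaller than these bounds were not detectable at this depth. In B cell-gated cells the level was 0.182 to 0.296 CPM, and in NK cell-gated cells there was no UMI in 554, 390 or 588 cells.

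By hashtag, the neutrophil level of Tnfsf13b ran from 13.7 to 60.3 CPM in the control library with a median of 35.4, from 7.48 to 83.7 in the Ang II library with a median of 40.0, and from 0 to 54.9 in the B6.SLE123 library with a median of 35.5. The ranges of all 3 libraries overlapped, and the lowest value of each library came from a hashtag with 0 or 1 UMI. Within the neutrophil gate, cells in which the granule genes Camp, Ngp and Ltf made up at least 1% of UMIs held 62.1 CPM in control (113 cells), 53.3 in Ang II (248 cells) and 39.7 in B6.SLE123 (330 cells). Cells below 1% numbered 500, 410 and 337 and held 16.1, 13.4 and 8.86 CPM. Camp, Ngp and Ltf are secondary granule genes of immature neutrophils, and this split was made with its values known. The cells at or above 1% were also deeper, with a median of 5465 against 1070 UMIs in control, 7916 against 1667 in Ang II and 4415 against 844 in B6.SLE123, and the part of depth was not tested.

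Monocytes were a smaller source of Tnfsf13b. Classical monocyte-gated cells held 11 UMIs in control (11.4 CPM), 7 in Ang II (9.47 CPM) and 2 in B6.SLE123 (2.01 CPM). The B6.SLE123 log2 ratio was -2.51 (-5.72 to -0.31) and rested on those 2 and 11 UMIs, too few for the background share, which covers genes with at least 50 UMIs. Nonclassical monocyte-gated cells held 3, 3 and 8 UMIs, or 6.12, 8.80 and 10.7 CPM.

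In the B6.SLE123 library there was a further source, the cells gated by C1q, Cxcl14, Fcgr4 and Itgax, which held 16 Tnfsf13b UMIs in 189 cells (36.0 CPM, 20.6 to 58.4), or 12.2% of the library's Tnfsf13b UMIs. The control and Ang II libraries had 7 such cells each with no Tnfsf13b UMI, too few for a ratio. Of these 16 UMIs, 15 came from hashtag C0303, which also held 154 of the 189 cells. Hashtag C0303 held 279 of the 667 neutrophil-gated cells too, and its level over all kept cells was 7.47 CPM, against 0.613 to 2.98 in the other B6.SLE123 hashtags.

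Over all kept cells, Tnfsf13b was 2.25 CPM in control, 3.52 in Ang II (log2 ratio 0.65, 0.24 to 1.06) and 3.04 in B6.SLE123 (0.43, 0.02 to 0.86). Of the genes counted in all kept cells, 27.3% had an interval wholly above 0 in the Ang II comparison and 26.8% in that of B6.SLE123. Without C0302 of the Ang II library the log2 ratio was 0.15 (-0.29 to 0.61), and without C0303 of the B6.SLE123 library it was -0.41 (-0.93 to 0.11). The B6.SLE123 interval also included 0 without control hashtag C0301, C0303, C0304 or C0306, at ratios of 0.33, 0.32, 0.34 and 0.26. With the study's limits on cells read as UMIs in place of genes detected, the B6.SLE123 ratio was 1.12 (0.31 to 1.96) and that of Ang II 0.05 (-0.94 to 1.03), so that their order turned. With every class weighted by its share of UMIs in the control library, the levels were 2.52 CPM for Ang II and 2.08 CPM for B6.SLE123. Conversely, control levels weighted by the class shares of each library gave 3.22 and 2.73 CPM. S100a8, a neutrophil gene, stood at 4989 CPM in control, 9735 in Ang II and 6830 in B6.SLE123.

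The APRIL gene, Tnfsf13, was mainly a monocyte transcript among the kept cells. Classical monocyte-gated cells held 182 CPM in control (175 UMIs in 216 cells, 156 to 211), 138 in Ang II (102 UMIs in 106 cells, 113 to 168) and 211 in B6.SLE123 (210 UMIs in 222 cells, 184 to 242). The Ang II ratio was -0.40 on the log2 scale (-0.77 to -0.04), and 8.59% of genes counted in this gate had an interval wholly below 0. The interval included 0 once control hashtag C0302 or C0304, or Ang II hashtag C0301 or C0303, was left out, with ratios of -0.30, -0.34, -0.34 and -0.33. The B6.SLE123 ratio was 0.22 (-0.08 to 0.51), and it was 0.43 (0.09 to 0.76) without C0303 of that library.

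Nonclassical monocyte-gated cells held 159 CPM of Tnfsf13 in control (78 UMIs in 201 cells), 150 in Ang II (51 UMIs in 90 cells) and 86.0 in B6.SLE123 (64 UMIs in 380 cells). The B6.SLE123 level was lower by a log2 ratio of -0.89 (-1.39 to -0.39), beside 10.8% of genes in this gate with an interval wholly below 0. Leaving out any single hashtag gave -1.20 to -0.61, and with the limits on cells read as UMIs the ratio was -0.56 (-1.23 to 0.11), an interval that included 0. The Ang II ratio was -0.09 (-0.63 to 0.44). By hashtag, nonclassical monocytes ran from 77.2 to 247 CPM with a median of 144 in control and from 60.7 to 156 with a median of 89.4 in B6.SLE123, and these ranges overlapped. The cells differed in depth as well, with a median of 2117 UMIs in control and 1517 in B6.SLE123. At the minimum of 3 markers lay 33 of the 201 control cells and 92 of the 380 B6.SLE123 cells. The mean number of B cell markers detected per cell of this gate was 0.294 in control, 0.444 in Ang II and 0.834 in B6.SLE123. The part of these differences in the ratio was not tested.

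In neutrophil-gated cells Tnfsf13 was 7.01 CPM in control (9 UMIs), 9.67 in Ang II (29 UMIs) and 25.6 in B6.SLE123 (55 UMIs). The B6.SLE123 log2 ratio was 1.87 (0.84 to 3.07), and 17.6% of genes in this gate had an interval wholly above 0. NK cell-gated cells held 4.76 to 5.72 CPM and B cell-gated cells 0 to 0.230 CPM. By hashtag the B6.SLE123 neutrophils ran from 0 to 213 CPM with a median of 15.1, and the control neutrophils from 0 to 17.8 with a median of 5.42. Hashtag C0304 gave the 213 CPM from 10 UMIs, of which 9 were in 1 of its 22 cells. Cells with at least 1% of UMIs from Camp, Ngp and Ltf held all 9 control UMIs, all 29 from Ang II and 53 of the 55 in B6.SLE123. Of the neutrophil-gated cells, such cells were 330 of 667 in B6.SLE123, 248 of 658 in Ang II and 113 of 613 in control. Within them Tnfsf13 was 12.4 CPM in control (5.68 to 23.6), 12.9 in Ang II (8.62 to 18.5) and 29.2 in B6.SLE123 (21.9 to 38.2). B6.SLE123 thus remained the highest, and the part of this split in the ratio of the whole gate was not tested.

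Much of the neutrophil-gate Tnfsf13 was in the few cells with a UMI of Elane, the neutrophil elastase gene of early granulocyte precursors. This split was made after the values had been seen. In B6.SLE123, 27 such cells held 33 of the 55 UMIs (117 CPM, 80.7 to 165), and the other 640 cells without Elane held 22 UMIs (11.8 CPM, 7.37 to 17.8). In the control library 6 cells with Elane held 5 UMIs, and the other 607 held 4 (3.38 CPM, 0.922 to 8.66). In the Ang II library 7 cells with Elane held 10 UMIs, and the other 651 held 19 (6.61 CPM, 3.98 to 10.3). Cells with an Elane UMI were deeper, with a median of 11699 against 1504 UMIs in B6.SLE123, and the part of depth was not tested. Tnfsf13b went different ways over this split: cells with and without Elane held 58.8 and 40.6 CPM in control, 63.6 and 42.5 in Ang II, and 14.2 and 38.0 in B6.SLE123, with 4 to 8 UMIs behind each Elane value.

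Over all kept cells Tnfsf13 was 9.23 CPM in control, 4.60 in Ang II and 9.76 in B6.SLE123. The Ang II level was lower by a log2 ratio of -1.01 (-1.27 to -0.75), past 2-fold lower as were 0.648% of all counted genes, while 21.9% lay wholly below 0. It fell short of 2-fold, at -0.96 to -0.82, without control hashtag C0302 or C0305 or Ang II hashtag C0302, C0303 or C0305, and was -1.54 with the limits read as UMIs. Barcodes with 3500 or more genes had been left out, unevenly between the libraries. They held 9 of the 416 Tnfsf13 UMIs of all control barcodes, 77 of 322 in Ang II and 127 of 695 in B6.SLE123. The part of this limit in the ratios was not tested. Hashtags ran from 2.38 to 13.7 CPM in control and from 2.87 to 6.41 in Ang II, and so overlapped. Monocyte-gated cells were 2.66% of the control cells, 1.40% of the Ang II cells and 3.60% of the B6.SLE123 cells. With classes weighted as in the control library, the Ang II level was 7.13 CPM. With control levels at Ang II class shares it was 5.90 CPM. The B6.SLE123 log2 ratio over all kept cells was 0.08 (-0.13 to 0.30). It was 0.26 (0.03 to 0.51) without control hashtag C0305, -0.21 (-0.45 to 0.03) without B6.SLE123 hashtag C0303, and 0.77, with an interval wholly above 0, with the limits read as UMIs.

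**Figure D2:**
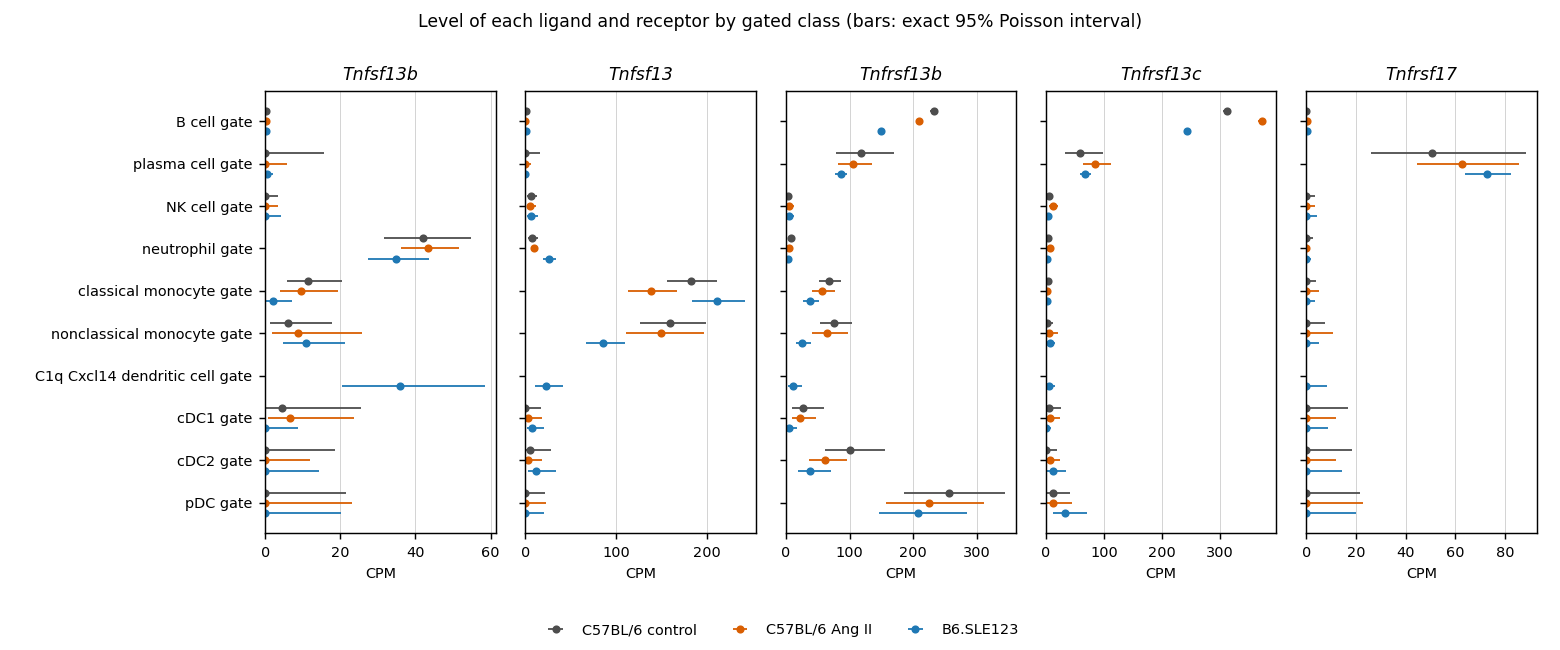
CPM of each gene (horizontal axes, linear, in separate ranges) in 10 gated classes of the 3 libraries; points are from summed UMIs and bars exact 95% Poisson intervals, with classes under 20 cells left out. Tnfrsf13b is high in pDC as well as B cells and present in monocytes and cDC2, where Tnfrsf13c is at most 11.6 CPM.

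The TACI gene, Tnfrsf13b, was lower in the B cells of the B6.SLE123 library. B cell-gated cells held 232 CPM in control (6356 UMIs, 226 to 238), 210 in Ang II (7514 UMIs, 205 to 215) and 150 in B6.SLE123 (4560 UMIs, 146 to 154). On the log2 scale the B6.SLE123 ratio was -0.63 (-0.68 to -0.57) and the Ang II ratio -0.14 (-0.19 to -0.10). Intervals wholly below 0 were found for 33.9% of genes in the B cell gate of the B6.SLE123 comparison and for 17.5% in that of Ang II, so an interval of this kind was common at this depth. Neither ratio reached 2-fold, as 6.98% and 1.62% of genes did in either direction.

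The 6 control hashtags held 241, 213, 274, 225, 221 and 233 CPM of Tnfrsf13b in B cells, from C0301 to C0306. The 6 B6.SLE123 hashtags held 184, 148, 106, 158, 142 and 164 CPM in the same order. Every B6.SLE123 value lay below every control value, which was so for 10.7% of genes in the B cell gate. The Ang II hashtags, from 193 to 225 CPM, overlapped the control values. Leaving out C0303, the lowest B6.SLE123 hashtag, gave a log2 ratio of -0.54.

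**Figure D3:**
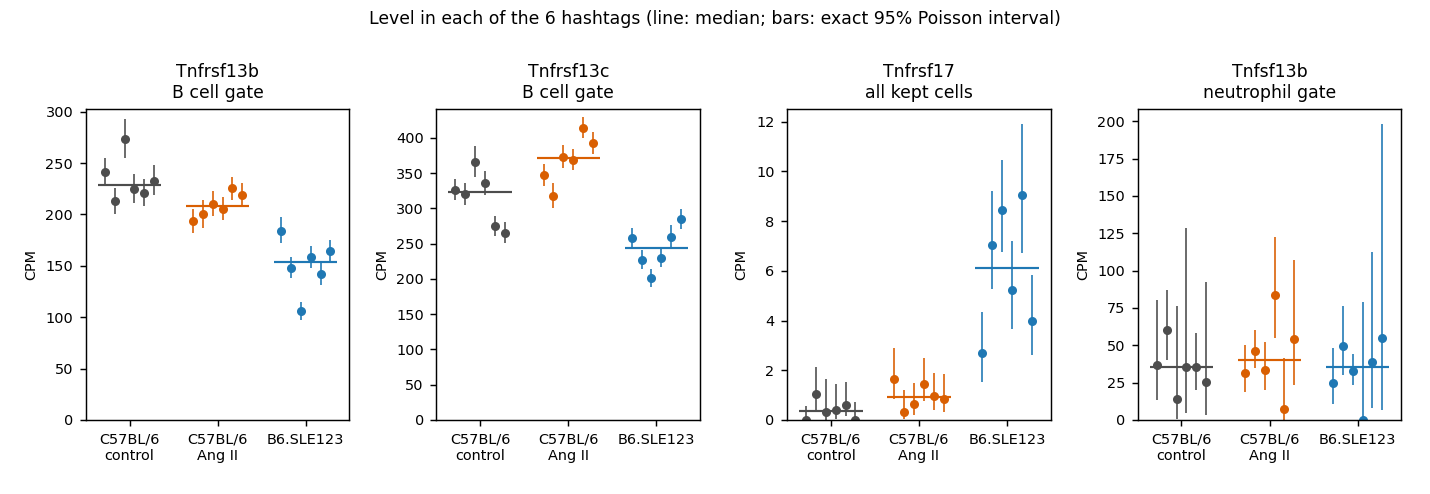
CPM by hashtag, in the order C0301 to C0306 within each library, for Tnfrsf13b and Tnfrsf13c in the B cell gate, Tnfrsf17 in all kept cells and Tnfsf13b in the neutrophil gate; lines are medians over 6 hashtags and bars exact 95% Poisson intervals. B6.SLE123 hashtags lie below all control hashtags for Tnfrsf13b and above them for Tnfrsf17, and overlap them for Tnfrsf13c and Tnfsf13b.

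Among B cell subsets, the size of the B6.SLE123 ratio varied. Many B cells were placed in no single subset: 5960 of 13097 in control, 2996 of 11487 in Ang II and 7250 of 12583 in B6.SLE123. Their B6.SLE123 log2 ratio was -0.52 (-0.60 to -0.44). In the same order, follicular-gated cells numbered 6161, 7264 and 3866, and marginal zone-gated cells 708, 846 and 461. Follicular-gated cells held 233, 208 and 143 CPM in control, Ang II and B6.SLE123, with a B6.SLE123 log2 ratio of -0.70 (-0.80 to -0.61). In that gate 25.3% of genes had an interval wholly below 0, and every B6.SLE123 hashtag again lay below every control hashtag, as for 5.64% of genes. Marginal zone-gated cells held 226, 215 and 192 CPM, with a B6.SLE123 ratio of -0.24 (-0.43 to -0.04), beside 9.19% of genes wholly below 0, and the hashtags overlapped. That interval included 0 when control hashtag C0301 or B6.SLE123 hashtag C0302 or C0305 was left out, with the limits read as UMIs, and with 1 marker more per gate, where the ratio was -0.06. The intervals of the follicular and marginal zone ratios did not overlap each other, and the difference between them was not tested.

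Germinal centre-gated cells had the lowest Tnfrsf13b of the B cell subsets in each library, with 81.1 CPM in control (25 UMIs in 52 cells), 103 in Ang II (47 UMIs in 73 cells) and 39.1 in B6.SLE123 (115 UMIs in 499 cells). The B6.SLE123 log2 ratio was -1.05 (-1.69 to -0.37), past 2-fold lower as were 1.97% of genes in that gate, where 7.21% of genes had an interval wholly below 0. It was -0.73 (-1.62 to 0.31) without control hashtag C0302, -0.91 and -0.95 without B6.SLE123 hashtag C0302 or C0303, and -0.78 with barcodes of several hashtags kept. B1-gated cells of B6.SLE123 held 198 CPM and its T-bet CD11c-gated cells 180 CPM, from 254 and 176 cells.

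The BAFF-R gene, Tnfrsf13c, moved in opposite directions in the B cells of the 2 compared libraries. B cell-gated cells held 312 CPM in control (8559 UMIs, 306 to 319), 373 in Ang II (13348 UMIs, 366 to 379) and 243 in B6.SLE123 (7403 UMIs, 238 to 249). The log2 ratio was 0.26 for Ang II (0.22 to 0.29), with 30.3% of genes wholly above 0, and -0.36 for B6.SLE123 (-0.41 to -0.31). Both ratios use the same control library. Control hashtags ran from 266 to 366 CPM with a median of 323, Ang II hashtags from 318 to 414 with a median of 371, and B6.SLE123 hashtags from 201 to 284 with a median of 244. The ranges of both libraries overlapped that of the control library, unlike Tnfrsf13b in B6.SLE123. Control hashtags C0305 and C0306, at 275 and 266 CPM, were the 2 lowest of that library, and the other 4 lay between 320 and 366 CPM.

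Marginal zone-gated cells held less Tnfrsf13c than follicular-gated cells in every library, at 189 against 315 CPM in control, 263 against 385 in Ang II and 199 against 249 in B6.SLE123. In follicular-gated cells the B6.SLE123 log2 ratio was -0.34 (-0.42 to -0.27), and in B cells of no single subset -0.47 (-0.53 to -0.40). In marginal zone-gated cells it was 0.08 (-0.12 to 0.27) and the Ang II ratio 0.48 (0.33 to 0.63), where 14.7% of genes lay wholly above 0. Germinal centre-gated cells held 276, 397 and 271 CPM. Their B6.SLE123 ratio of -0.02 (-0.35 to 0.32) had no direction beyond counting error, beside the lower Tnfrsf13b of the same cells.

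The balance of these 2 receptors differed between subsets. Tnfrsf13b made up 42.6% of the UMIs of Tnfrsf13b and Tnfrsf13c together in control B cells (41.8 to 43.4), 36.0% in Ang II (35.4 to 36.7) and 38.1% in B6.SLE123 (37.2 to 39.0). In marginal zone-gated cells the share was 54.5%, 44.9% and 49.1%, and in germinal centre-gated cells 22.7%, 20.6% and 12.6%. The order marginal zone, follicular, germinal centre was the same in all 3 libraries. These shares are of UMIs and not corrected for transcript length, so only their differences between cells can be read.

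Sparse counts limited what could be seen per cell. With each B cell thinned to 1000 UMIs, a Tnfrsf13b UMI was found in 20.6% (control), 18.9% (Ang II) and 14.1% (B6.SLE123) of the cells, after 905, 637 and 1165 shallower cells had been left out. Without thinning the shares were 35.2%, 44.1% and 27.5%, at median depths of 1773, 2741 and 1933 UMIs, so the unthinned shares put Ang II above control and the thinned shares below it, and only the CPM and the thinned shares were read. For Tnfrsf13c the thinned shares were 27.4%, 30.9% and 21.5%, against 0.452% to 0.820% in NK cell-gated cells, which should lack it and had median depths of 1701, 2432 and 1327 UMIs. Both receptors were found together in 6.08%, 6.03% and 3.04% of thinned B cells, where the product of their separate shares was 5.63%, 5.85% and 3.04%.

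**Figure D4:**
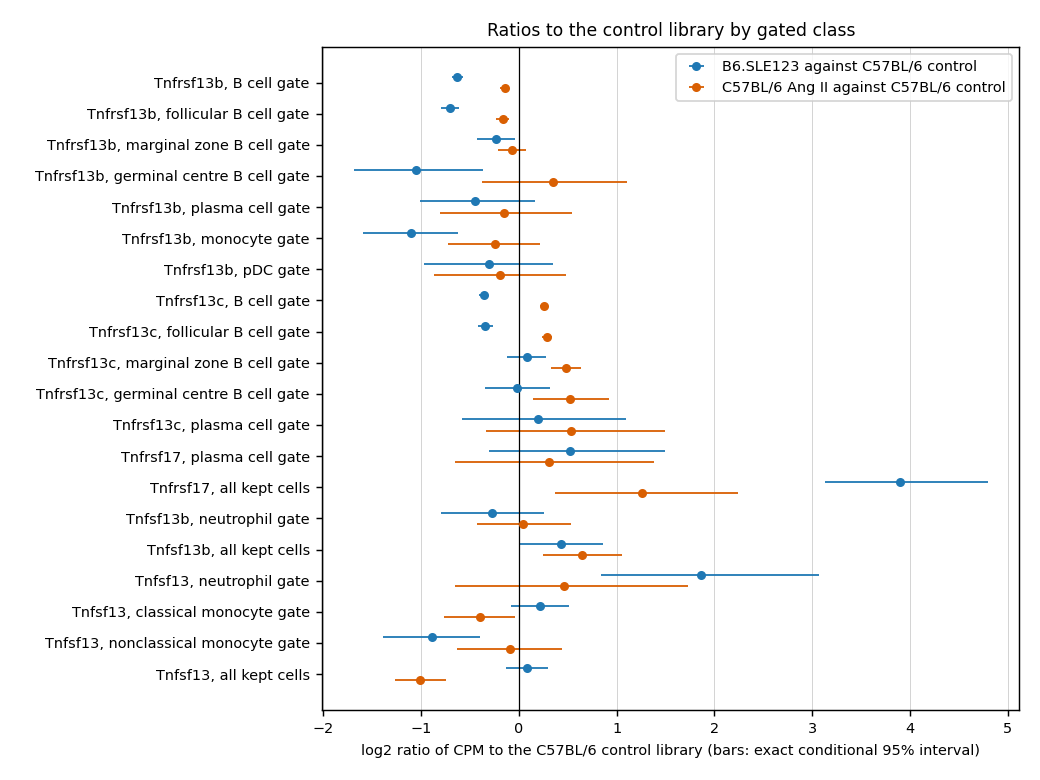
log2 ratio of CPM to the control library (horizontal axis) for 20 combinations of gene and gate in the B6.SLE123 and Ang II libraries; points are ratios of summed counts and bars exact conditional 95% intervals. Tnfrsf13b and Tnfrsf13c lie below 0 in B6.SLE123 B cells, and the Tnfrsf17 ratio of 3.90 over all kept cells contrasts with 0.52 inside the plasma cell gate.

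Outside the B lineage, Tnfrsf13b was found in pDC, monocytes and cDC2, and at lower levels in cDC1. Plasmacytoid dendritic cell-gated cells (pDC) held 256 CPM in control (44 UMIs in 42 cells), 225 in Ang II (36 UMIs in 25 cells) and 207 in B6.SLE123 (38 UMIs in 52 cells), and both ratios to control had intervals that included 0. Tnfrsf13c had 2, 2 and 6 UMIs in the same cells. Tnfrsf13b made up 95.7%, 94.7% and 86.4% of the UMIs of both receptors in pDC and 90.5% to 96.2% in monocytes, against 36.0% to 42.6% in B cells of the same libraries. In the Ang II library the 300 T cell-gated cells held 34 Tnfrsf13b UMIs (25.9 CPM, 17.9 to 36.1) and 3 Tnfrsf13c UMIs. By contrast, Tnfrsf13b in NK cell-gated cells was 3.81 to 5.72 CPM and in neutrophil-gated cells 3.72 to 7.78 CPM.

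Monocytes of the B6.SLE123 library held less Tnfrsf13b. Classical and nonclassical monocyte-gated cells together held 70.2 CPM in control (102 UMIs in 417 cells), 59.2 in Ang II (64 UMIs in 196 cells) and 32.8 in B6.SLE123 (57 UMIs in 602 cells). As a log2 ratio to control, B6.SLE123 stood at -1.10 (-1.59 to -0.62) and the Ang II ratio -0.25 (-0.72 to 0.22). In the monocyte gate 10.9% of genes lay wholly below 0 in the B6.SLE123 comparison. The ratio was -0.82 (-1.44 to -0.22) in classical monocytes, where 12.1% of genes lay wholly below 0, and -1.56 (-2.44 to -0.73) in nonclassical monocytes. The control hashtags held 63.2, 58.6, 50.6, 94.6, 77.3 and 49.7 CPM, from C0301 to C0306, and the B6.SLE123 hashtags 11.6, 30.2, 42.1, 6.78, 31.9 and 44.0. Every B6.SLE123 hashtag lay below every control hashtag, as for 0.909% of genes in the monocyte gate, although 1 to 35 UMIs stood behind each B6.SLE123 value. The B6.SLE123 ratio of both monocyte gates together was -1.73 (-2.60 to -0.91) with the limits read as UMIs and -1.53 (-2.27 to -0.86) without B6.SLE123 hashtag C0303. In cDC2-gated cells the levels were 100, 61.4 and 38.6 CPM, from 20, 19 and 10 UMIs. In cDC1-gated cells they were 27.6, 22.8 and 4.73 CPM, from 6, 7 and 2 UMIs.

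The BCMA gene, Tnfrsf17, was a plasma cell transcript, and it was higher over all cells of the B6.SLE123 library, which held the most plasma cells. Over all kept cells it was 0.414 CPM in control (14 UMIs), 0.990 in Ang II (45 UMIs) and 6.19 in B6.SLE123 (267 UMIs). Relative to control, the B6.SLE123 log2 ratio was 3.90 (3.13 to 4.79), past 2-fold higher as were 6.46% of genes, and the Ang II ratio 1.26 (0.36 to 2.24), past 2-fold higher as were 2.45%. The control hashtags held 0, 1.03, 0.298, 0.398, 0.594 and 0 CPM, from C0301 to C0306. The B6.SLE123 hashtags held 2.68, 7.04, 8.47, 5.21, 9.05 and 3.98 CPM in that order, all above the control values, as for 7.04% of genes. Without control hashtag C0302, which held 7 of the 14 control UMIs, the log2 ratios were 4.58 for B6.SLE123 and 1.93 for Ang II. The Ang II ratio fell short of 2-fold without control hashtag C0301, at 0.95, and with barcodes of several hashtags kept, at 0.77. The study words its limits on cells as RNA counts: read as UMIs in place of genes detected, they removed nearly all plasma cells and left 2 Tnfrsf17 UMIs in control, 1 in Ang II and 2 in B6.SLE123, with ratios of -0.88 (-6.76 to 3.38) and 0.045 (-3.74 to 3.83) for the latter libraries. Neither difference was then detectable.

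The plasma cell gate held 25 control cells (0.159% of kept cells, 0.103 to 0.235), 46 Ang II cells (0.328%) and 333 B6.SLE123 cells (1.99%). Inside the gate Tnfrsf17 was 50.5 CPM in control (12 UMIs, 26.1 to 88.2), 62.7 in Ang II (39 UMIs, 44.6 to 85.7) and 72.7 in B6.SLE123 (241 UMIs, 63.8 to 82.4). The ratios of 0.31 for Ang II (-0.65 to 1.38) and 0.52 for B6.SLE123 (-0.31 to 1.50) had intervals that included 0. With 1 marker fewer per gate the B6.SLE123 ratio was 0.91 (0.10 to 1.84), but that gate also takes in cells with 4 markers. Such cells held 3.01 CPM of Tnfrsf17 in control (58 cells) and 2.65 CPM in B6.SLE123 (291 cells), beside the 25 and 333 gated cells. With classes weighted as in control, the level of B6.SLE123 over all cells was 0.964 CPM in place of 6.19, while control levels at B6.SLE123 class shares gave 3.95 CPM. Immunoglobulin genes took 40.1%, 47.1% and 45.4% of the UMIs of plasma cell-gated cells, which lowers the CPM of every other gene there.

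Plasma cell-gated cells also held Tnfrsf13b at 118, 106 and 86.2 CPM and Tnfrsf13c at 58.9, 85.2 and 67.5 CPM. All were below the levels of B cell-gated cells, on totals that include immunoglobulin genes. Those genes took 40.1% to 47.1% of the UMIs in plasma cell-gated cells and 1.75% to 1.92% in B cell-gated cells, so the 2 gates cannot be ranked on these totals. The share of Tnfrsf13b among the UMIs of both receptors does not depend on them. In control, Ang II and B6.SLE123 it was 66.7%, 55.5% and 56.1% in plasma cell-gated cells. In B cell-gated cells it was 42.6%, 36.0% and 38.1%, so Tnfrsf13c was the smaller part in plasma cell-gated cells only. The receptors were also followed over the number of plasma cell markers detected, a split chosen with its values known. In B6.SLE123, cells with 4 of the 8 markers, just outside the gate, held 67.9 CPM of Tnfrsf13b, 234 of Tnfrsf13c and 2.65 of Tnfrsf17 (291 cells). Cells with 5 held 87.2, 131 and 57.3 CPM (104 cells), cells with 6 held 72.7, 50.6 and 45.1 CPM (109 cells), and cells with 7 or 8 held 95.9, 44.8 and 102 CPM (120 cells). On totals that include immunoglobulin genes, Tnfrsf13c was lower with 5 and with 6 markers than with 4, and Tnfrsf13b showed no such order. The share of those genes at each number of markers is not given here, so neither gene can be ranked over the steps on such totals. The UMIs of Tnfrsf13b and Tnfrsf13c in the same cells share their total. They were 128 and 441 with 4 markers, 70 and 105 with 5, 79 and 55 with 6, and 137 and 64 with more. Tnfrsf17 was near 0 outside the gate. Detection of more markers also went with depth, from a median of 6064 UMIs at 4 markers to 11318 at 7 or 8, and the part of depth was not tested. In the Ang II library the cells with 4 markers held 283 CPM of Tnfrsf13c and no Tnfrsf17 UMI, and those with 7 or 8 held 60.9 and 70.5 CPM.

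**Figure D5:**
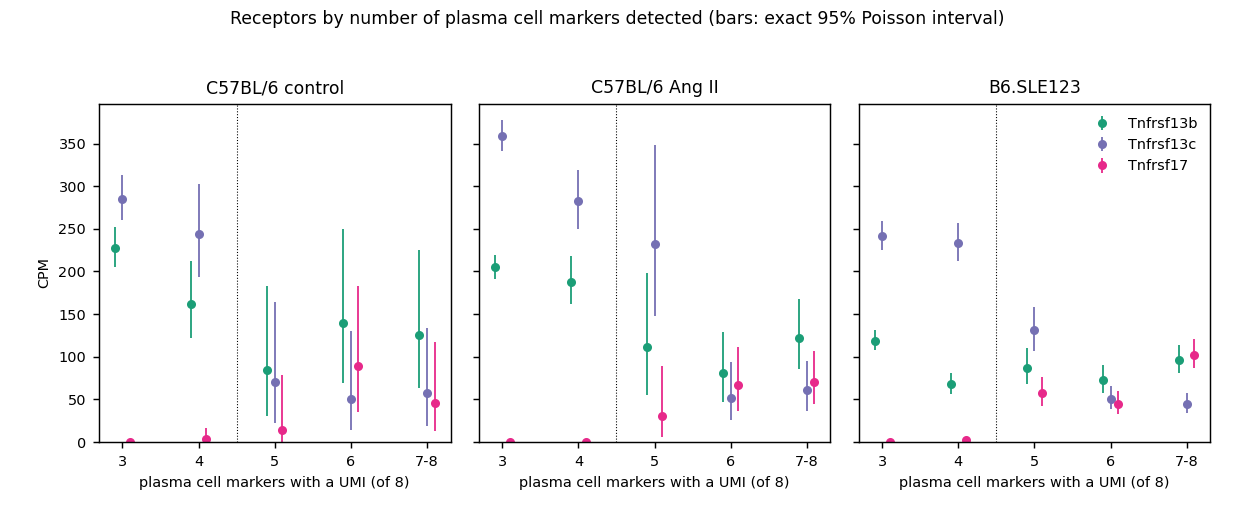
CPM of the 3 receptor genes (vertical axis) against the number of plasma cell markers with a UMI (horizontal axis, of 8), in cells of the B cell, plasma cell or no gate of each library; bars are exact 95% Poisson intervals and the dotted line is the lower limit of the plasma cell gate. Tnfrsf13c is above 200 CPM at 3 and 4 markers in every library, and Tnfrsf17 is at most 3.01 CPM there. All totals include immunoglobulin genes.

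A list of 35 other genes of the pathway was examined, covering adaptors and kinases downstream of the receptors, NF-kB subunits, survival genes, the proteases that shed ligands and receptors, and the syndecans that bind APRIL. In B cell-gated cells of B6.SLE123, 34 of them had at least 50 UMIs, 0 were past 2-fold higher and 1 was past 2-fold lower, where 5.22% and 1.76% of all genes were. Their median log2 ratio was -0.15, beside -0.05 for all genes. The gene past 2-fold was Sdc1, the plasma cell syndecan CD138, at 1.25 CPM against 3.65 in control (-1.55, -2.13 to -0.99). Sdc1 is also a marker of the plasma cell gate, which counts how many markers were detected and not their level. A cell with Sdc1 as its only plasma cell marker is thus not moved out of the B cell gate. The part of the plasma cell gate in the Sdc1 ratio was not tested.

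Among the other genes of that list, some values in B6.SLE123 B cells are given as examples of their roles, chosen after they were seen. Map3k14, the NIK kinase of the noncanonical pathway, had a log2 ratio of -0.43 (-0.59 to -0.28), Traf3, its inhibitor, -0.33 (-0.44 to -0.22) and Nfkb2, its target subunit, -0.33 (-0.41 to -0.24). The NF-kB subunit Rel stood at -0.60 (-0.65 to -0.54), and the survival gene Bcl2a1b at 0.81 (0.73 to 0.90). Of all genes in this gate, 33.9% had an interval wholly below 0, a background for the lower examples and not for Bcl2a1b. Among the 34 listed genes, 23 had a ratio below 0 and 11 above. The share of all genes with a ratio below 0 is not given here, and whether the list stands apart was not tested. In Ang II B cells 0 of 34 genes passed 2-fold in either direction, where 1.62% of all genes did, and the median was 0.12, beside 0.06 for all genes.

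The genes whose level over gated classes was most like that of each member were found by Pearson's r of log2(CPM + 1) over 40 sums of a class in a library, from 15 classes. The sums share libraries and depth, and r is a description. For Tnfsf13b they were Chil3, Rhou and Slfn4 (r of 0.82 each), Chil3 being a chitinase-like protein of neutrophils and macrophages. For Tnfsf13 they were Ifi204, Lrp1 and Clec4a3 (0.87, 0.87 and 0.86). For Tnfrsf13b they were Gpr155, Map4k1 and Kctd3 (0.84, 0.83 and 0.81), and for Tnfrsf13c the B cell kinase gene Blk, Bend5 and Bcar3 (0.82, 0.80 and 0.80). For Tnfrsf17 they were Chst1, 4933404K13Rik and Reln (0.97, 0.95 and 0.93).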

How the data were processed

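Per the labels, single cells were prepared with 10x Genomics 5′ v2 chemistry and TotalSeq-C hashtags. The authors deposited raw UMI counts per gene and hashtag for each barcode, which had not been normalized. The file headers name Cell Ranger 6.0.0, and the submitters' processing notes name mm10. A barcode needed more than 200 and fewer than 3500 detected genes and less than 15% of its UMIs from mitochondrial genes. The study words the limits of 200 and 3500 as RNA counts; they were read as genes detected, since read as UMIs they remove nearly all plasma cells. Barcodes positive for several hashtags (an Otsu threshold per hashtag and library) were removed as doublets, 2446 in control, 1809 in Ang II and 3670 in B6.SLE123. Doublets within a hashtag were not removed. The libraries held 44146350, 59043555 and 63516694 gene UMIs in 18218, 16062 and 20691 barcodes.

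Classes were gated from 16 lineage lists and 6 B cell subset lists of 6 to 12 markers. The lineage other than B or plasma with the highest share of its list detected was taken, a cell that passed such a gate and the B or plasma gate was set aside as mixed, and the plasma gate went before the B cell gate. The minimum numbers of markers were chosen after the files had been seen. The members and all lists were chosen with earlier results of these data known. No test was run, because each group was a single library. UMIs were summed per class, and CPM carry exact Poisson, shares exact Clopper-Pearson and ratios exact conditional 95% intervals. Ratios needed at least 20 cells per library, and background shares cover genes with at least 50 UMIs over both libraries. Thinning used 1000 UMIs and a fixed seed. Named were all 5 members, pathway genes past 2-fold in B cells, and for each member the 3 genes with the highest correlation among genes with at least 200 UMIs; other genes were named after their values were seen. On Poisson counts simulated for 11324 genes of the B cell gate of B6.SLE123 against control, intervals covered the true ratio for 95.6% of genes. The intervals assume this same model, and the simulation held no spread between hashtags or libraries, so it cannot show how the intervals cover such spread. Positions are from GENCODE vM21 and upstream sequences from RefSeq, both on GRCm38. All 5 members matched. Python 3.11.15, numpy 2.4.6, scipy 1.17.1, pandas 2.3.3, scikit-image 0.26.0 and matplotlib 3.10.9 were used. Alternatives were the limits read as UMIs, barcodes with several hashtags kept, 1 marker more or fewer per gate, immunoglobulin genes left out of the total, median-ratio scaling, a minimum of 20 UMIs, no thinning, and each hashtag left out in turn.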

Additional observations from a re-analysis of the deposited data

Results flagged for a closer look

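The 64 sets of hashtag values with at least 10 UMIs were examined for a value far from the others of its library, and 5 had one, where chance gives about 5 in 100. Over all kept B6.SLE123 cells, hashtag C0303 held 7.47 CPM of Tnfsf13b, and the nearest other hashtag 2.98 CPM. In B6.SLE123 neutrophils, hashtag C0304 held 213 CPM of Tnfsf13 from 10 UMIs in 22 cells, and the nearest other hashtag 28.3 CPM. The remaining values rested on 3 or 4 cells. In control plasma cells, hashtag C0305 held 368 CPM of Tnfrsf13b from 7 UMIs in 3 cells, and the nearest other 139 CPM. In control pDC, hashtag C0306 held 72.3 CPM of Tnfrsf13b from 1 UMI in 4 cells, and the nearest other 244 CPM. In T cell-gated cells of the Ang II library, hashtag C0304 held 99.1 CPM of Tnfrsf13b from 1 UMI in 3 cells, and the nearest other 25.9 CPM.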

How the results depend on the processing

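There were 50 log2 ratios and 867 values for them under the alternatives, of which 3 turned the direction of a ratio whose interval had excluded 0. No paired analysis was possible because each group was 1 library and the hashtags carried no replicate number. With the limits read as UMIs, which removed nearly all plasma cells, the Tnfrsf17 ratio over all kept cells was 0.045 for B6.SLE123 (2 against 2 UMIs) and -0.88 for Ang II (1 against 2 UMIs), Tnfsf13b over all kept cells was 1.12 for B6.SLE123 and 0.05 for Ang II, and Tnfsf13 in nonclassical monocytes of B6.SLE123 was -0.56 (-1.23 to 0.11). With median-ratio scaling, the B cell ratio of Tnfrsf13c was -0.31 for B6.SLE123 and 0.20 for Ang II, and that of Tnfrsf13b was -0.20 for Ang II. With 1 marker fewer per gate, Tnfrsf17 in the plasma cell gate of B6.SLE123 was 0.91 (0.10 to 1.84), a gate that then took in cells with almost no Tnfrsf17. Tnfrsf13b in transitional B cells of Ang II turned from 0.45 to -0.18. The cause of these changes was not tested. Counting genes from 20 UMIs raised the number past 2-fold in Ang II B cells from 183 to 402. Leaving out a hashtag at a time gave -0.69 to -0.54 for Tnfrsf13b and -0.41 to -0.31 for Tnfrsf13c in B6.SLE123 B cells, and -0.17 to -0.11 and 0.21 to 0.29 in Ang II B cells. For Tnfrsf17 it gave 3.60 to 4.58 over all kept cells and 0.39 to 0.99 in plasma cells of B6.SLE123, and 0.95 to 1.93 and -0.03 to 0.78 for Ang II. For Tnfsf13b it gave -0.42 to 0.14 in B6.SLE123 neutrophils, -0.12 to 0.45 in Ang II neutrophils and -0.41 to 0.83 over all kept cells of B6.SLE123. For Tnfsf13 it gave 0.14 to 0.43 in classical and -1.20 to -0.61 in nonclassical monocytes of B6.SLE123, and -0.48 to -0.30 and -0.40 to 0.19 for Ang II. Depth limited Tnfrsf17 in control cells (14 UMIs) and Tnfsf13b outside neutrophils.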
